A study of Mus musculus with 4 samples.

Results

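Cytotoxic lymphocytes kill by emptying granules onto their target, and 10 genes of that machinery are described here in CD45+ cells, the blood-derived immune cells, of the mouse small intestine. The genes were taken by symbol from the 32285 genes measured, and all 10 were present in each of the 4 samples. They encode 4 granzymes (Gzma, Gzmb, Gzmc and Gzmm), the pore-forming protein perforin (Prf1), the granule membrane protein Nkg7, the lysosomal protease cathepsin W (Ctsw), its family's inhibitor cystatin F (Cst7), and 2 serpins that block granzymes (Serpinb6b and Serpinb9). Cystine, 2 cysteines joined by a disulfide bond, was enriched in the diet of the mice behind 2 samples, and 2 samples came from mice on a control diet, in all cases male mice whose CD45+ cells were sorted from inside the crypts. The groups follow the sample titles, because the treatment label reads "Control" for every sample, and the protocol text calls the diet high in cysteine where the titles say cystine. Strain, age, time on the diet and the number of mice behind a sample are not given in the sources used here, so p-values measure the spread between these samples only, which may be technical.

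Granzymes are serine proteases that are stored in acidic granules on the proteoglycan serglycin and trimmed to their active form by cathepsin C. Perforin opens the membrane of the target cell so that granzymes can enter its cytosol, and serpins in the cytosol of the killer cell trap granzymes that leak. In the small intestine these genes are known for their high transcription in intraepithelial T cells, which include γδ T cells and T cells with the CD8αα homodimer, both of which settle in the epithelium early, and conventional T cells with the CD8αβ heterodimer, which arrive after priming. Cystatin F limits the cathepsins that activate granzymes, and Nkg7 takes part in granule release.

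The start regions of Gzma, Gzmb and Prf1 are shown because these genes carry the contrasts described below, a pair of granzymes that were higher in γδ than in CD8αβ T cells and perforin, which was not called between them except under a stricter cell filter. Each window runs from 250 bases before to 50 bases after the annotated start, 5′ to 3′ on the strand of the gene, in the RefSeq annotation of GRCm38.p6. The window of Gzma is chr13:113100932-113101231 (minus strand), that of Gzmb chr14:56262285-56262584 (minus strand) and that of Prf1 chr10:61297586-61297885 (plus strand). Capitals mark matches, on either strand, to letters bound by 5 families of transcription factors: TGTGGT (RUNX), TGANTCA (AP-1), ACGTCA (the core of the cyclic AMP response element, CRE), GGTGTGA (T-box) and GGAAGT (ETS). These letters were chosen after the windows had been read.
Gzma: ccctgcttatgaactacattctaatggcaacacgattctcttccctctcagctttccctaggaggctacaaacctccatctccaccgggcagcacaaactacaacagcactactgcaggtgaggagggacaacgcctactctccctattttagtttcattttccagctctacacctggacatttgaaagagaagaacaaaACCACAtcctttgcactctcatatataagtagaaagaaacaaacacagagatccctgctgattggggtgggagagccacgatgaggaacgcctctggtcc
Gzmb: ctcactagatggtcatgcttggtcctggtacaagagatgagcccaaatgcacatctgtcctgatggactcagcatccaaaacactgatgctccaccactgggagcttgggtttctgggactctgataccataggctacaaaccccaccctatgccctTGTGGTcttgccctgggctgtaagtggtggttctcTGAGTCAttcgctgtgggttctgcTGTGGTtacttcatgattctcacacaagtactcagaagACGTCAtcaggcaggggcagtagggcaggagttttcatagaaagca
Prf1: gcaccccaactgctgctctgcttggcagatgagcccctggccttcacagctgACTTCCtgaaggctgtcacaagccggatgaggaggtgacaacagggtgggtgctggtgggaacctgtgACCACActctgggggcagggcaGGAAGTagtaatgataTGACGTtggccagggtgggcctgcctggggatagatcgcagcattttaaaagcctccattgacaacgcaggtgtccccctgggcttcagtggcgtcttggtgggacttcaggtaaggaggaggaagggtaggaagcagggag
The Gzma window held 1 RUNX match, at bases -50 to -45 from the start. The Gzmb window held 2 RUNX matches (-93 to -88 and -34 to -29), 1 AP-1 match (-58 to -52) and 1 CRE core (5 to 10). The Prf1 window held 1 RUNX match (-130 to -125), 1 CRE core (-92 to -87) and 2 ETS matches (-198 to -193 and -108 to -103). Of 32851 such windows over all genes, 16.8% held the RUNX letters, 7.81% the AP-1 letters, 7.51% the CRE core, 3.98% the T-box letters and 23.8% the ETS letters. A match describes the letters only, and binding was not measured.

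The libraries were 5′ 10x libraries with 18000 cells loaded per sample, and they held 27229695 to 31301936 unique molecular identifiers (UMIs, 1 per captured RNA molecule) over 15391 to 19351 barcodes. After filters, 13483 to 16324 cells per sample remained, with a median of 1293.5 to 1712 UMIs. Any 2 libraries shared 335 to 454 barcode sequences. Cell types were set by UMIs of marker genes, none of them a granule gene. The gates gave 3760 and 4228 γδ T cells (Trdc UMIs, no Cd8b1 or Cd4) in the cystine samples, against 5039 and 5153 in the controls. CD8αβ T cells (Cd8a and Cd8b1 UMIs, no Trdc or Cd4) numbered 1296 and 1294 in the cystine samples, against 543 and 471 in the controls. T cells with Cd8a and αβ receptor UMIs but none of Cd8b1, Cd4 or Trdc, called CD8αα-gated here, numbered 3929 and 3518 in the cystine samples, against 3939 and 4389 in the controls. That gate carried the γ chain gene Tcrg-V7 at 678 to 1372 CPM, against 1001 to 1436 CPM in the γδ gate, so it cannot be called a pure αβ population. CD4 T cells numbered 42 to 88 per sample and Ncr1+ CD3-negative cells, which can be NK cells or innate lymphoid cells, 20 to 30. B cells made up 11.7% of kept cells in cystine sample 1, against 1.92% to 5.35% in the other samples, and 21.2% to 30.2% of cells met no gate.

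Gzma, which encodes a protease that cuts after basic residues, was the most abundant of the 10 genes in each of the 4 T cell gates. Its level, in counts per 1000000 UMIs of the summed cells (CPM), was 35837 and 35636 CPM in γδ T cells of the cystine samples, against 32646 and 39186 CPM in the controls. In CD8αα-gated cells it was 36438 and 35668 CPM in the cystine samples, against 33152 and 43640 CPM in the controls, a range that overlapped that of γδ T cells. CD8αβ T cells stood below both, at 9819 and 13002 CPM in the cystine samples and 13024 and 16915 CPM in the controls. CD4 T cells followed at 1261 and 7217 CPM in the cystine samples, against 4487 and 5432 CPM in the controls, with no overlap with the CD8αβ range. The 1261 CPM of cystine 1 lay close to the 943 CPM of B cells in that sample, which gauge RNA freed from other cells. In the other samples B cells held 240 to 993 CPM. The order of the means over 4 samples was 37224 CPM in CD8αα-gated, 35826 in γδ, 13190 in CD8αβ, 4599 in CD4 T cells and 687 CPM in B cells. Ncr1+ cells, with 8445 to 15457 CPM, lay within or near the CD8αβ range.

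Gzmb, which encodes a protease that cuts after aspartate and can start apoptosis, was lower than Gzma in each T cell gate. γδ T cells held 5968 and 6450 CPM in the cystine samples, against 6043 and 7167 CPM in the controls, a range that overlapped that of CD8αα-gated cells, at 6465 and 6525 CPM in the cystine samples and 6067 and 8311 CPM in the controls. CD8αβ T cells held 1468 and 2582 CPM in the cystine samples, against 2810 and 3796 CPM in the controls, and did not overlap with γδ T cells. The CD8αβ range overlapped that of CD4 T cells, which held 323 and 2005 CPM in the cystine samples, against 1493 and 1569 CPM in the controls. B cells of cystine 1, where CD4 T cells held 323 CPM, had 194 CPM. Gzmc, a granzyme of rodents, was sparse: 19.2 and 24.1 CPM in γδ T cells of the cystine samples, against 19.0 and 24.5 CPM in the controls, with a UMI in 2.04% to 2.53% of cells. CD4 T cells had no Gzmc UMI in any sample, which at their depth allows up to 21.6 to 32.0 CPM per sample (3 counts). Gzmm, which encodes granzyme M, was close to absent, with 97 UMIs in all kept cells of the 4 samples together and 0.874 to 4.47 CPM on average in the 4 T cell gates.

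Perforin stepped down less than Gzma and Gzmb from γδ to CD8αβ T cells. Its means over 4 samples were 82.2 CPM in γδ, 81.2 in CD8αα-gated, 69.6 in CD8αβ and 30.2 CPM in CD4 T cells. Prf1 stood at 73.1 and 89.2 CPM in γδ T cells of the cystine samples, against 78.6 and 87.9 CPM in the controls, and at 70.9 and 83.3 CPM in CD8αβ T cells of the cystine samples, against 53.7 and 70.3 CPM in the controls. The γδ, CD8αα-gated and CD8αβ ranges of Prf1 overlapped. Nkg7 was high in all 3 gates, with 3154 to 3469 CPM in γδ, 3201 to 3670 CPM in CD8αα-gated and 2307 to 2694 CPM in CD8αβ T cells. Ctsw was at 1349 to 1471 CPM, 1440 to 1528 CPM and 1054 to 1103 CPM in the same gates, and Cst7 at 502 to 692 CPM, 551 to 749 CPM and 497 to 541 CPM. For Nkg7 and Ctsw the CD8αβ range lay below the other 2 without overlap, and for Cst7 it overlapped with that of γδ T cells. In the fits below neither Nkg7 nor Ctsw passed for γδ over CD8αβ T cells, and Ctsw passed for CD8αα-gated cells. How many of all genes had separate ranges between gates was not counted. Nothing is therefore read from overlap here or in the levels of Gzma and Gzmb above. Serpinb6b, which encodes an inhibitor of granzyme A, and Serpinb9, which encodes the inhibitor of granzyme B, had means of 83.9 to 118 CPM and 36.7 to 46.0 CPM in the 4 T cell gates, whose ranges overlapped from each gate to the next. Conventional dendritic cells held Serpinb9 at 206 and 139 CPM in the cystine samples, against 161 and 1348 CPM in the controls, from 4 to 14 cells per sample.

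**Figure D1:**
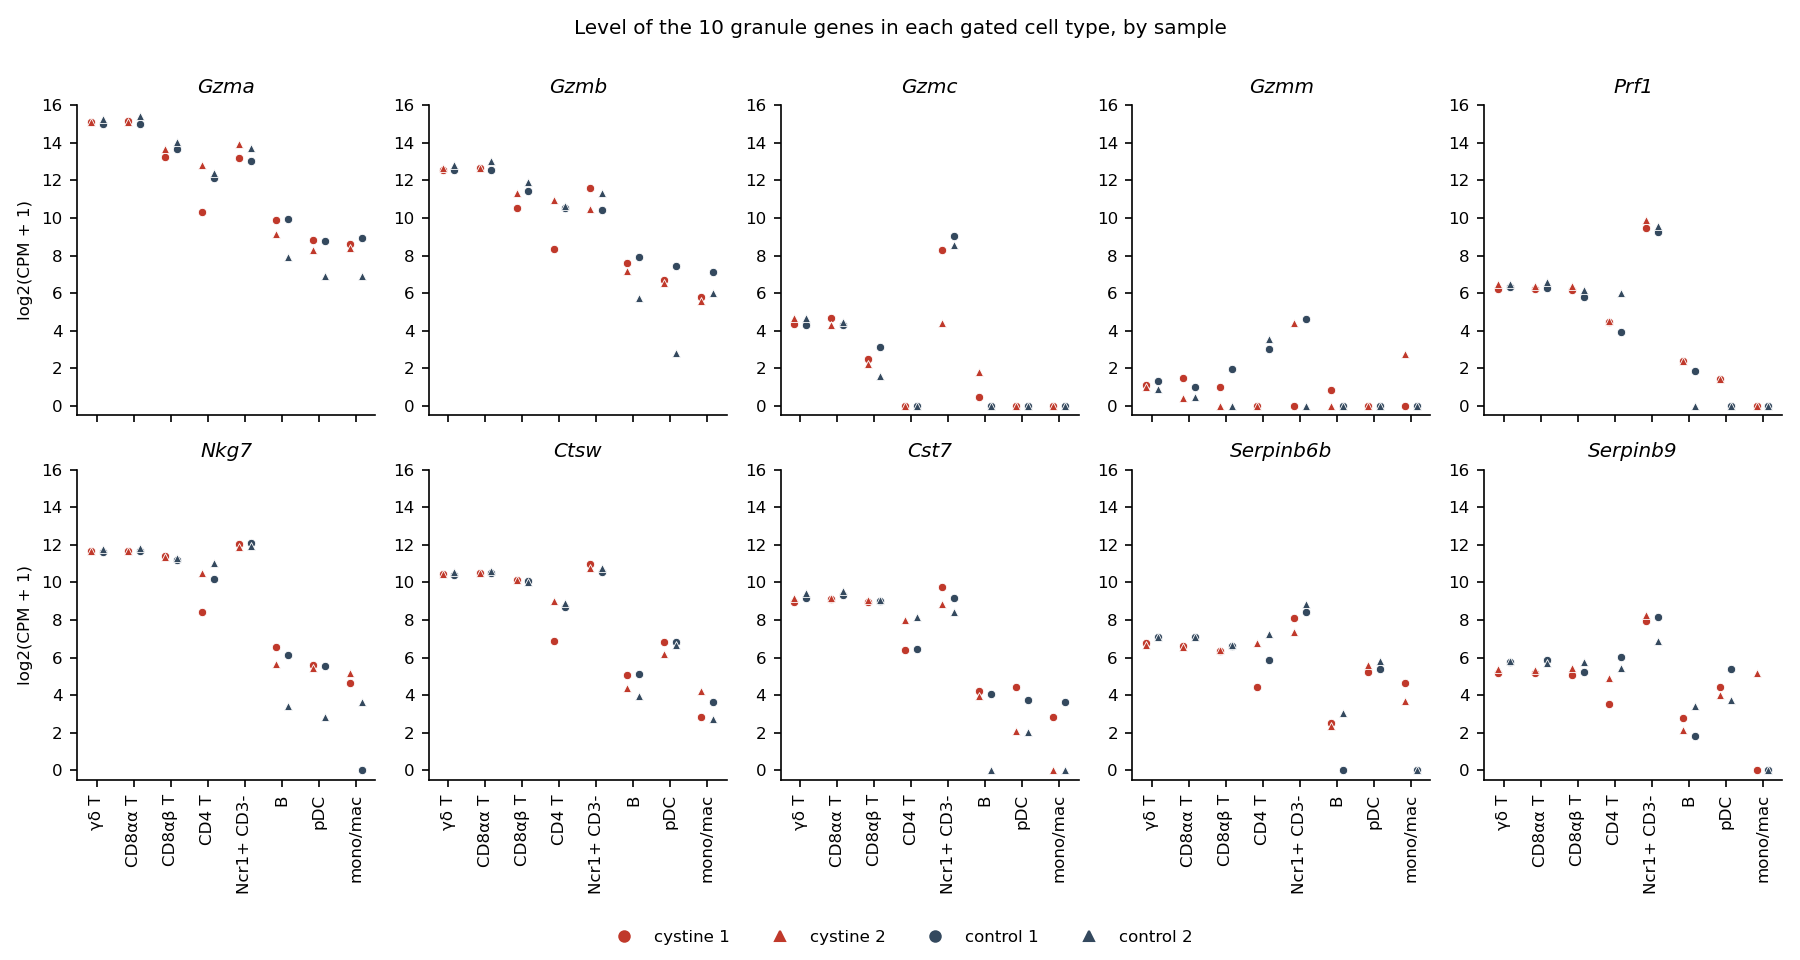
Level of each of the 10 genes as log2(CPM + 1) in 8 gated cell types, with 1 point per sample (red, cystine diet; dark, control diet; circles, replicate 1; triangles, replicate 2). Gzma and Gzmb step down from γδ and CD8αα-gated to CD8αβ and CD4 T cells, whereas the Prf1 ranges overlap over the first 3 gates and are highest in Ncr1+ CD3-negative cells.

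RNA freed from broken cells puts UMIs of abundant genes into cells that do not transcribe them, and B cells, which are not known to make granzyme A, show how much. B cells carried Gzma at 943 and 572 CPM in the cystine samples, against 993 and 239.6 CPM in the controls. At least 1 Gzma UMI was found in 69.7% (95% Clopper-Pearson interval 67.6% to 71.8%) and 54.1% (50.5% to 57.7%) of B cells of the cystine samples. The controls had 71.4% (65.8% to 76.6%) and 29.8% (24.5% to 35.5%), and these intervals cover counting error only. Control 2 was the lowest of the 4 samples. The median depth was 1094.5 to 1266 UMIs in B cells, against 1452 to 1792 UMIs in γδ T cells. With every cell thinned to 500 UMIs, 40.6% and 27.2% of B cells of the cystine samples held a Gzma UMI, against 39.6% and 12.8% in the controls. The same thinning left 91.8% and 89.5% of γδ T cells of the cystine samples with a Gzma UMI, against 91.5% and 87.8% in the controls. A single Gzma UMI is therefore not read as expression in these libraries.

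A higher bar, chosen after the B cell values had been seen, separated the types better. At least 5 Gzma UMIs of 500 were found in 0.157% and 0% of B cells of the cystine samples and 0% in both controls, which allows shares of up to 0.390% in cystine 2 (769 cells), 1.07% in control 1 (280 cells) and 1.06% in control 2 (282 cells), at 3 cells each. In γδ T cells the share was 85.7% and 83.2% in the cystine samples, against 83.7% and 84.8% in the controls. In CD8αβ T cells it was 35.0% and 44.0% in the cystine samples, against 35.0% and 43.3% in the controls, so the gate held cells with and without high Gzma in both diets. CD4 T cells had 7.84% and 30.7% in the cystine samples, against 21.3% and 16.7% in the controls. The tenth of CD8αβ T cells with the most Gzma held 47.0% to 54.8% of the gate's Gzma UMIs, against 29.6% to 33.6% in γδ T cells.

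**Figure D2:**
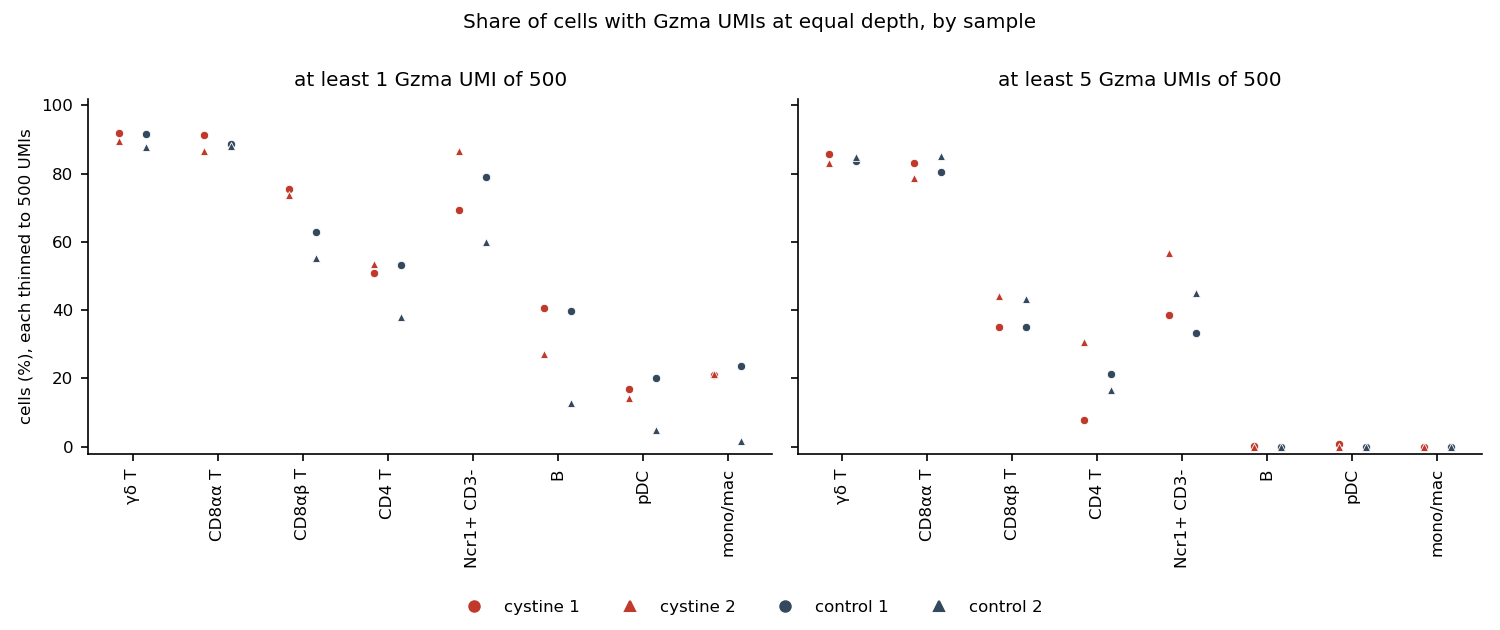
Share of cells in each gate with at least 1 (left) or at least 5 (right) Gzma UMIs after each cell was thinned to 500 UMIs, with 1 point per sample. B cells reach 12.8% to 40.6% at 1 UMI and stay at or below 0.157% at 5 UMIs, where γδ T cells keep 83.2% to 85.7%.

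Other granule genes stood at lower CPM than Gzma in B cells, with Gzmb at 53.2 to 246 CPM and Nkg7 at 9.68 to 92.1 CPM. Relative to the level over all kept cells, Gzmb in B cells was at 4.91% and 3.03% in the cystine samples, against 4.85% and 0.785% in the controls. Gzma was at 4.05% and 2.25% in the cystine samples, against 3.67% and 0.671% in the controls, so by that measure Gzmb stood above Gzma in each sample. Prf1 had 4.29 and 4.18 CPM in B cells of the cystine samples, against 2.56 CPM and no UMI in the controls. A Prf1 UMI was found in 10.8% (9.82% to 11.8%) and 14.3% (13.3% to 15.4%) of γδ T cells of the cystine samples, against 11.4% (10.6% to 12.3%) and 15.0% (14.0% to 15.97%) in the controls. In B cells the Prf1 share was 0.575% and 0.650% in the cystine samples, against 0.357% and 0% in the controls. γδ T cells were read more deeply than B cells, and their Prf1 share lay above that of B cells in every sample, although most cells had no Prf1 UMI at this depth.

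UMIs of Gzma and Gzmb were often found in the same cells. Cells are split here by a single Gzma UMI, which can be free RNA and is not read as expression. At 500 UMIs per cell, a Gzmb UMI was present in 80.3% and 81.6% of γδ T cells with Gzma in the cystine samples, against 80.8% and 86.3% in the controls. Among γδ T cells without Gzma the Gzmb share was 8.09% and 7.01% in the cystine samples, against 8.20% and 3.82% in the controls. In CD8αβ T cells with Gzma, Gzmb was present in 40.2% and 53.9% in the cystine samples, against 60.1% and 74.6% in the controls. Control 2, where the fewest CD8αβ T cells held a Gzma UMI, was also the sample with the least Gzma in B cells. The part of free RNA in the difference was not tested.

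Differences between cell types were fitted with edgeR on UMIs summed per sample and gate, with the sample as a block. Except for the contrasts of γ chains and of cycling cells, the fit also held the B cell, plasmacytoid dendritic cell and monocyte or macrophage gates. Its SEs therefore carry the spread of those gates too, not only that of the T cell gates being compared. Of 9083 genes, 38.7% differed between γδ and CD8αβ T cells at an adjusted p below 0.05, so a call by itself is common in this contrast. Of the 9 granule genes tested, 4 were higher in γδ T cells and none lower, with a median log2 fold change of 0.32 against 0.02 over all genes. Gzma was higher by 1.38 (SE 0.34, adjusted p = 0.00172), Gzmb by 1.25 (SE 0.30, adjusted p = 0.00149), Gzmc by 2.23 (SE 0.27, adjusted p = 1.09e-06) and Serpinb6b by 0.32 (SE 0.11, adjusted p = 0.0221). Serpinb6b lost the call without cystine 1 (0.29), control 1 (0.28) or control 2 (0.28). Prf1 was at 0.15 (SE 0.10, adjusted p = 0.252), Nkg7 at 0.32 (SE 0.24, adjusted p = 0.322), Ctsw at 0.32 (SE 0.14, adjusted p = 0.0699), Cst7 at 0.10 (SE 0.16) and Serpinb9 at 0.07 (SE 0.16). Prf1 passed with a stricter cell filter (0.31, adjusted p = 0.0404). Nkg7 ranged from 0.25 to 0.34 with each sample left out, and passed without a filter on low counts (0.34). Ctsw passed without cystine 1 (0.31), with a stricter cell filter (0.41, adjusted p = 0.0119), with stricter gates (0.24), with DESeq2's size factors (0.35) and without a filter on low counts (0.35). The signs of Cst7 without control 2 (-0.0022) and of Serpinb9 without control 1 (-0.04) turned.

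The CD8αβ gate also carried transcripts of the other gates. The γ chain constant genes Tcrg-C1, Tcrg-C2 and Tcrg-C4 with Fcer1g and Tyrobp, signalling adaptors of natural intraepithelial lymphocytes, summed to 1999 and 2074 CPM in CD8αβ T cells of the cystine samples, against 2570 and 2791 CPM in the controls. The set is not particular to such lymphocytes: plasmacytoid dendritic cells carried 8460 to 9771 CPM and monocytes or macrophages 9292 to 10655 CPM. All 5 of these genes were detected in the CD8αβ gate in each sample, and γδ T cells carried 6215 to 8304 CPM. A subset of CD8αβ T cells without any UMI of the 5 genes was therefore taken after the data had been seen. It held 700 and 614 cells in the cystine samples, 54.0% and 47.4% of the gate, against 144 and 110 cells in the controls, 26.5% and 23.4% of the gate. Against this subset, Gzma was higher in γδ T cells by 2.25 (SE 0.35, adjusted p = 5.61e-06), Gzmb by 2.11 (SE 0.30, adjusted p = 2.21e-06) and Gzmc by 3.58 (SE 0.49, adjusted p = 5.68e-06), whereas Serpinb6b did not pass (0.34, adjusted p = 0.137). In that contrast 31.8% of 7944 genes were called.

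Between CD8αα-gated and CD8αβ T cells 35.4% of 9083 genes were called. Of the 9 granule genes tested, 4 were higher and none lower, with a median of 0.36 against 0.02 over all genes: Gzma (1.45, SE 0.34, adjusted p = 0.00123), Gzmb (1.35, SE 0.30, adjusted p = 0.000752), Gzmc (2.18, SE 0.28, adjusted p = 1.89e-06) and Ctsw (0.39, SE 0.14, adjusted p = 0.0314). Ctsw lost the call without cystine 2 (0.40), control 1 (0.38) or control 2 (0.33). The contrast shares its CD8αβ samples with that of γδ T cells. Against the subset without marker UMIs, where 29.6% of genes were called, Gzma was at 2.32, Gzmb at 2.22 and Gzmc at 3.52, each with an adjusted p below 0.05.

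CD4 T cells, the helper T cells, were lower in 5 of the 9 granule genes tested and higher in none, against 4.27% of 9083 genes called in either direction. The members' median was -1.43, or -1.26 over 8 genes without Gzmc, which had no UMI in CD4 T cells, against -0.06 over all genes. Relative to CD8αβ T cells, Ctsw fell by 1.55 (SE 0.19, adjusted p = 1.5e-06), Cst7 by 1.63 (SE 0.25, adjusted p = 7.5e-05), Gzma by 1.61 (SE 0.35, adjusted p = 0.00475), Prf1 by 1.43 (SE 0.34, adjusted p = 0.0116) and Nkg7 by 1.09 (SE 0.27, adjusted p = 0.0153). Gzmb was at -1.05 (SE 0.33, adjusted p = 0.0719), and passed with a stricter cell filter (-1.51, adjusted p = 0.00351), with doublets kept (-1.13, adjusted p = 0.0494) and without a filter on low counts (-1.17). Serpinb6b was at -0.20 and Serpinb9 at -0.21, neither called. Against the subset of CD8αβ T cells without marker UMIs, where 5.64% of genes were called, Gzma no longer passed (-0.74, adjusted p = 0.256), while Ctsw, Cst7, Prf1 and Nkg7 did. Without cystine 2 the calls of Prf1 (-1.21) and Nkg7 (-1.18) were lost, without control 1 those of Gzma (-1.67), Prf1 (-1.33) and Nkg7 (-1.15), and without cystine 1 that of Prf1 (-1.33). Cystine 1 had the lowest Gzma and Nkg7 of the 4 CD4 samples, at 1261 CPM and 344 CPM. B cells of that sample held Gzma at 943 CPM and Nkg7 at 92.1 CPM.

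The Ncr1+ CD3-negative cells stood out for perforin. They held Prf1 at 709 and 952 CPM in the cystine samples, against 600 and 752 CPM in the controls, above every T cell gate in every sample, although the sums rest on 25 to 47 Prf1 UMIs. With 20 to 30 cells per sample they were under the limit of 30 cells, and they were tested with a limit of 20 chosen after the cell numbers had been seen. Of 8362 genes, 5.97% were called against CD8αβ T cells, with a median of -0.36 over all genes. Of 9 granule genes, 4 were higher and none lower: Prf1 by 3.13 (SE 0.19, adjusted p = 3.56e-14), Gzmc by 5.75 (SE 0.55, adjusted p = 3.33e-08), Serpinb9 by 2.28 (SE 0.38, adjusted p = 5.8e-05) and Serpinb6b by 1.42 (SE 0.29, adjusted p = 0.00108). Gzmc had 13 and 1 UMIs in the cystine samples, against 22 and 13 in the controls, and the 22 UMIs of control 1 lay in 1 cell. Gzmc was too sparse to be tested without cystine 1 or against the CD8αβ subset. Serpinb9 was at 245 and 304 CPM in the cystine samples, against 288 and 116 CPM in the controls. Gzma (-0.47, SE 0.34, adjusted p = 0.519) and Gzmb (-0.60, SE 0.36, adjusted p = 0.401) did not pass, and against the CD8αβ subset without marker UMIs where 6.99% of 7008 genes were called, their signs turned (0.43 and 0.30, neither called). Nkg7 (0.40), Ctsw (0.40) and Cst7 (-0.16) did not pass either.

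Among γδ T cells the 2 main γ chains differed a little. The files name the genes Tcrg-V7, the chain of most intestinal γδ T cells, and Tcrg-V1. Cells with the first held Gzma at 37492 and 41753 CPM in the cystine samples and 37944 and 44398 CPM in the controls. Cells with Tcrg-V1 held 35889 and 29573 CPM in the cystine samples and 28726 and 33968 CPM in the controls, lower in each of the 4 samples. Of 9458 genes, 6.35% were called. Of 9 granule genes, 3 were higher in Tcrg-V7 cells and none lower: Gzma by 0.32 (SE 0.04, adjusted p = 7.55e-06), Nkg7 by 0.26 (SE 0.03, adjusted p = 3.54e-07) and Cst7 by 0.33 (SE 0.04, adjusted p = 4.76e-06). Gzmb was at 0.13 (SE 0.04, adjusted p = 0.113), and passed without cystine 1 (0.21, adjusted p = 0.00126). Prf1 (0.17, SE 0.08), Serpinb6b (0.14, SE 0.07), Serpinb9 (-0.20, SE 0.10), Gzmc (0.04, SE 0.16) and Ctsw (0.05, SE 0.03) did not pass, and Gzmc was at -0.07 without cystine 2. The members' median was 0.14, against -0.0019 over all genes.

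Cycling T cells, with UMIs of at least 2 of Mki67, Top2a, Birc5 and Ube2c, carried less of the granule transcripts per UMI. There were 63 to 133 such cells per sample, with a median of 2983 to 4376 UMIs, against 1315 to 1706 UMIs in other T cells. Nkg7 stood at 1587 and 1088 CPM in cycling cells of the cystine samples and 1857 and 1815 CPM in those of the controls, and at 2968 to 3408 CPM in other T cells. Of 11854 genes, 25.2% were called, with a median of -0.14 over all genes and -0.79 over the 10 granule genes, of which 6 were lower and none higher. Prf1 fell by 1.41 (SE 0.23, adjusted p = 0.000158), Cst7 by 1.16 (SE 0.13), Ctsw by 1.01 (SE 0.13), Nkg7 by 0.96 (SE 0.11), Gzmb by 0.63 (SE 0.09) and Gzma by 0.30 (SE 0.09, adjusted p = 0.0161). The call of Gzma was lost without control 1 (-0.32) or control 2 (-0.32) and with DESeq2's size factors (-0.23, adjusted p = 0.0575). At least 5 Gzma UMIs of 500 were found in 83.8% and 66.7% of cycling cells of the cystine samples and 81.2% and 90.6% of those of the controls. In other T cells the share was 72.2% and 72.4% in the cystine samples and 75.6% and 79.9% in the controls, lower than in cycling cells in 3 of the 4 samples, so the share did not follow the CPM. Gzmc passed without control 1 (-2.01, adjusted p = 0.00249), and Serpinb9 passed without cystine 2 (-0.69, adjusted p = 0.0365). Levels per UMI cannot tell a smaller number of granule transcripts from a larger number of other transcripts in these cells.

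**Figure D3:**
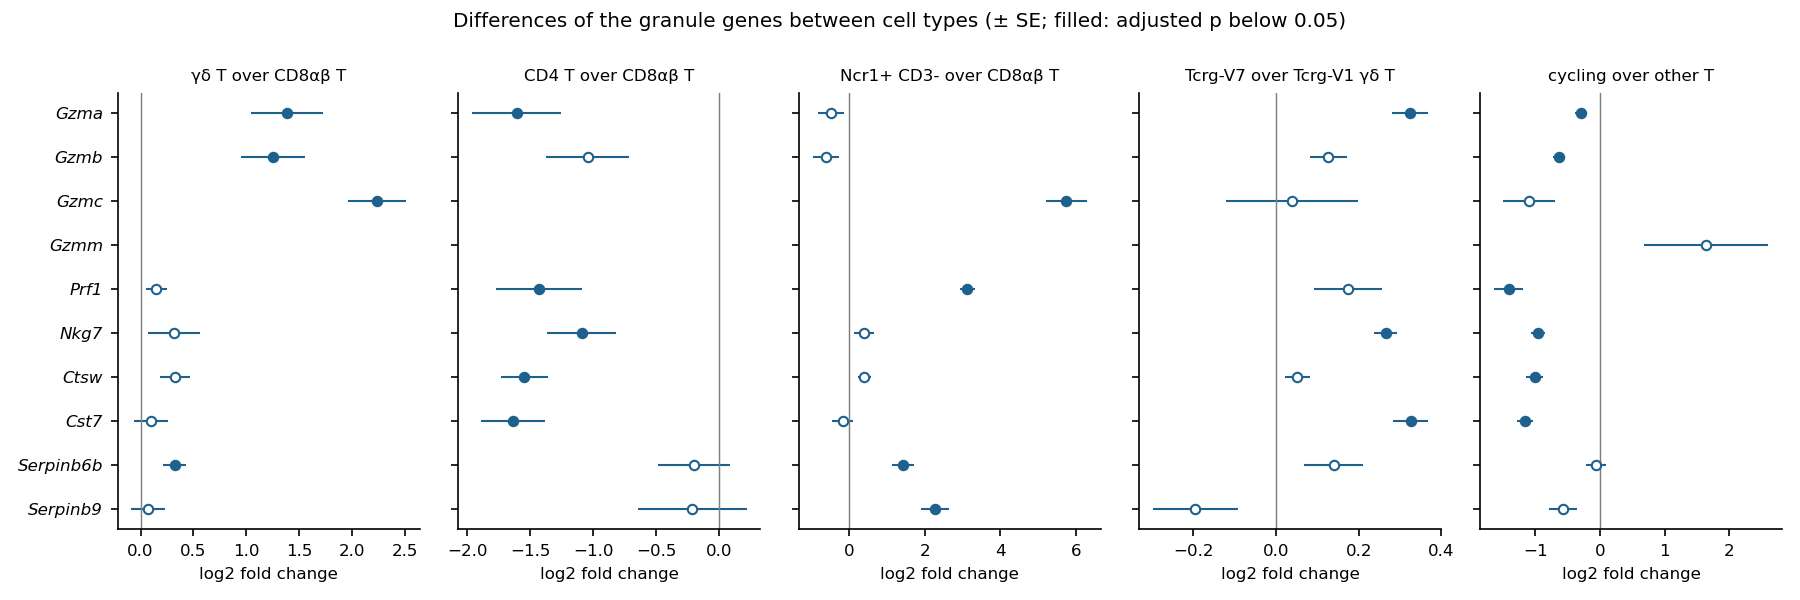
Log2 fold change with its standard error for each granule gene in 5 contrasts between gates, with filled points for an adjusted p below 0.05 and a scale for each panel. Gzmc in CD4 T cells, which had no UMI, has no point, and Gzmm was tested in the last contrast only.

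The levels over cell types of 4 members were also set beside those of all other genes. By Pearson's r of log2(CPM + 1) over the means of 7 gates, among 8052 genes, Gzma was closest to Dapk2 (0.999), 1810041H14Rik (0.998) and Vti1b (0.998). Gzmb was closest to Tnfsf10 (0.999), Gpr55 (0.998) and 1810041H14Rik (0.998), and Prf1 to Apol7b, Apol7e and Zgpat (0.998 each). Nkg7 was closest to Rnf44 (0.999), Nlk (0.999) and Aak1 (0.998). The 7 points share their libraries, and r over so few points is a description.

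No granule gene passed the test between the diets in any whole gate. In γδ T cells edgeR called 0.435% of 11492 genes and 0 of 9 granule genes, of which 2 had an unadjusted p below 0.05. In CD8αα-gated cells it called 0.045% of 11121 genes and 0 of 9, with 3 below an unadjusted 0.05. In CD8αβ T cells it called 0.668% of 8827 genes and 0 of 8, with 3 below an unadjusted 0.05. In CD4 T cells (0% of 2071 genes), B cells (0.134% of 6692), plasmacytoid dendritic cells (0% of 5143) and monocytes or macrophages (0.322% of 2484), 0 of 6, 5, 5 and 2 granule genes were called, none with an unadjusted p below 0.05. DESeq2 called none of the granule genes in any of these gates. Over all genes, 136 in CD4 T cells and 200 in plasmacytoid dendritic cells had an unadjusted p below 0.05, and DESeq2 called 1 and 0 genes. In simulated data with a set spread, edgeR recovered 42.2% of 2-fold changes in CD4 T cells and 46.0% in B cells. The recovered share was 54.0% in plasmacytoid dendritic cells and 28.8% in monocytes or macrophages. In γδ, CD8αα-gated and CD8αβ T cells it was 100%, 99.0% and 82.0%. A count of 0 in the smaller gates can therefore miss a change of that size. The call count depended on single samples: without control 1 it was 3 in γδ T cells and 4 in CD8αα-gated cells, and without cystine 2 it was 2 in CD8αβ and 4 in CD4 T cells. In those fits the calls over all genes were 222 of 11890 in γδ and 158 of 11523 in CD8αα-gated cells without control 1, and 148 of 8597 in CD8αβ and 62 of 2072 in CD4 T cells without cystine 2, above the counts with all samples. The count of granule genes also rose in CD4 T cells without cystine 1 and in B cells without cystine 2 or control 1. In monocytes or macrophages it rose without control 1. Each of these fits had a single sample in a group, and its calls over all genes rose as well.

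In γδ T cells all 9 granule genes tested had a log2 fold change, cystine over control, below 0 and none was called, with a median of -0.11, against 0.0013 over all genes. Gzma was at -0.08 (SE 0.11), Gzmb at -0.16 (SE 0.12), Prf1 at -0.11 (SE 0.15), Nkg7 at -0.10 (SE 0.12), Ctsw at -0.07 (SE 0.13) and Gzmc at -0.08 (SE 0.20), each with an adjusted p of 0.935 or more. Cst7 was at -0.32 (SE 0.15, adjusted p = 0.753), and from -0.50 to -0.12 with each sample left out. All of these signs but that of Cst7 rest on control 2: without it Gzma was at 0.12, Gzmb at 0.03, Prf1 at 0.04, Nkg7 at 0.02, Ctsw at 0.05 and Gzmc at 0.18. Prf1 (0.02) and Gzmc (0.07) were also positive without cystine 1. Without control 1, by contrast, Gzma (-0.26) and Gzmb (-0.34) passed. The 2 serpins had the lowest log2 fold changes in both the γδ and the CD8αα gates. Serpinb9 had 35.4 and 41.1 CPM in γδ T cells of the cystine samples, against 52.3 and 55.1 CPM in the controls, a log2 fold change of -0.56 (SE 0.15, adjusted p = 0.199). Serpinb6b had 109 and 98.7 CPM in the cystine samples, against 133 and 133 CPM in the controls (-0.43, SE 0.14, adjusted p = 0.372). Neither gene's groups overlapped, but the share of all genes with separate groups was not counted, so nothing is read from that. Serpinb9 passed without control 1 (-0.65, adjusted p = 0.0361).

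In CD8αα-gated cells Serpinb9 had 35.5 and 39.7 CPM in the cystine samples, against 57.4 and 51.3 CPM in the controls (-0.60, SE 0.14, adjusted p = 0.482). Serpinb6b had 96.9 and 94.1 CPM in the cystine samples, against 133 and 137 CPM in the controls (-0.57, SE 0.13, adjusted p = 0.471). The members' median was -0.21, against 0.0024 over all genes. Gzma was at -0.18 (SE 0.15), Gzmb at -0.23 (SE 0.17), Cst7 at -0.37 (SE 0.14), Prf1 at -0.21 (SE 0.17), Nkg7 at -0.17 (SE 0.12), Ctsw at -0.11 (SE 0.11) and Gzmc at 0.03 (SE 0.19), none of them called, and Gzmc was below 0 without cystine 1 (-0.16) or control 1 (-0.12). Without control 1, Gzma (-0.42), Gzmb (-0.50), Cst7 (-0.55) and Serpinb6b (-0.66) passed, and without control 2 Gzma (0.10), Gzmb (0.08) and Prf1 (0.02) were positive. Control 2 had the highest Gzma, Gzmb, Prf1, Nkg7, Ctsw and Cst7 of the 4 samples in this gate.

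Gzmb and Gzma differed most, among the 3 large T cell gates, in CD8αβ T cells. Gzmb averaged 2025 ± 788 CPM in the cystine samples and 3303 ± 698 CPM in the controls (SD, n = 2 each), a log2 fold change of -0.78 (SE 0.23, adjusted p = 0.229). Gzma averaged 11410 ± 2251 CPM in the cystine samples and 14969 ± 2752 CPM in the controls, at -0.47 (SE 0.15, adjusted p = 0.282). The groups did not overlap for either gene, but the gap for Gzma was narrow, with 13002 CPM in cystine 2 and 13024 CPM in control 1. How many of all genes had separate groups was not counted, so nothing is read from the separation. Both passed without cystine 2 (Gzmb -1.26, adjusted p = 1.99e-06; Gzma -0.70, adjusted p = 0.00139). Without cystine 1 (Gzma -0.25, Gzmb -0.41) and without control 2 (Gzma -0.23, Gzmb -0.50) the differences were smaller by over 1.5 times. Nkg7 was at 0.08 (SE 0.08), Prf1 at 0.25 (SE 0.19), Ctsw at -0.02 (SE 0.09), Cst7 at -0.12 (SE 0.10), Serpinb6b at -0.33 (SE 0.14) and Serpinb9 at -0.31 (SE 0.24). The signs of Nkg7 without control 1 (-0.009), of Ctsw without cystine 1 (0.0041) and of Serpinb9 without control 2 (0.03) turned. The members' median was -0.21, against -0.0002 over all genes.

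**Figure D4:**
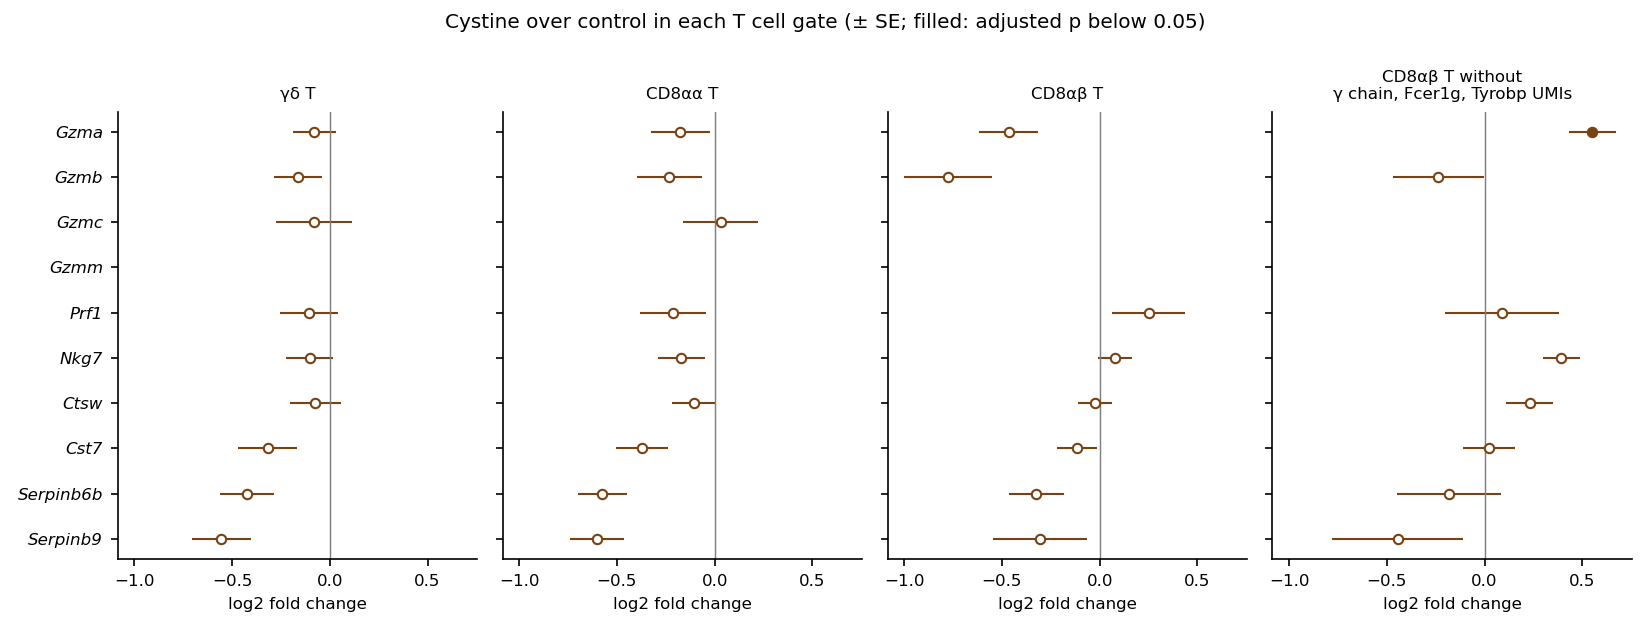
Log2 fold change, cystine over control, with its standard error for the granule genes in 4 sets of cells, on 1 scale, with filled points for an adjusted p below 0.05. Gzma and Gzmb lie below 0 in the whole CD8αβ gate (-0.47 and -0.78), and Gzma lies above 0 in the cells of that gate without marker UMIs (0.55).

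The sign of the Gzma difference in CD8αβ T cells depended on which cells of the gate were counted. In the whole gate the difference was not called (-0.47, edgeR adjusted p = 0.282), and the subset below was chosen after the data had been seen. In the cells without any UMI of Tcrg-C1, Tcrg-C2, Tcrg-C4, Fcer1g or Tyrobp, Gzma stood at 7558 and 10161 CPM in the cystine samples, against 5420 and 5893 CPM in the controls. There it was higher by 0.55 (SE 0.12, adjusted p = 0.0484), and it was 1 of 8 granule genes called, against 0.86% of 6282 genes. This subset held 144 and 110 cells in the controls, and its fits were not repeated with a sample left out. In the cells with such a UMI Gzma stood at 11930 and 14883 CPM in the cystine samples, against 15346 and 20032 CPM in the controls. The cells with a marker UMI were not tested on their own. Gzmb without marker UMIs stood at 885 and 1846 CPM in the cystine samples, against 1516 and 1498 CPM in the controls (-0.24, SE 0.23, adjusted p = 0.790), and its groups overlapped. With marker UMIs Gzmb was at 2012 and 3070 CPM in the cystine samples, against 3205 and 4446 CPM in the controls. Nkg7 without marker UMIs was at 2953 and 2835 CPM in the cystine samples, against 2021 and 2095 CPM in the controls (0.39, SE 0.09, adjusted p = 0.0699). Cells with marker UMIs were 46.0% and 52.6% of the gate in the cystine samples, against 73.5% and 76.6% in the controls. A single marker UMI can be free RNA: the 5 genes summed to 237 and 150 CPM in B cells of the cystine samples, against 220 and 72.6 CPM in the controls, and the part of free RNA in these shares was not tested. A cell without a marker UMI can still be one that was read less deeply: the median of cells without one was 1279.5 and 1482 UMIs in the cystine samples and 1518.5 and 1758.5 UMIs in the controls. The median of cells with one was 1428 and 1834.5 UMIs in the cystine samples and 1747 and 1888 UMIs in the controls.

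**Figure D5:**
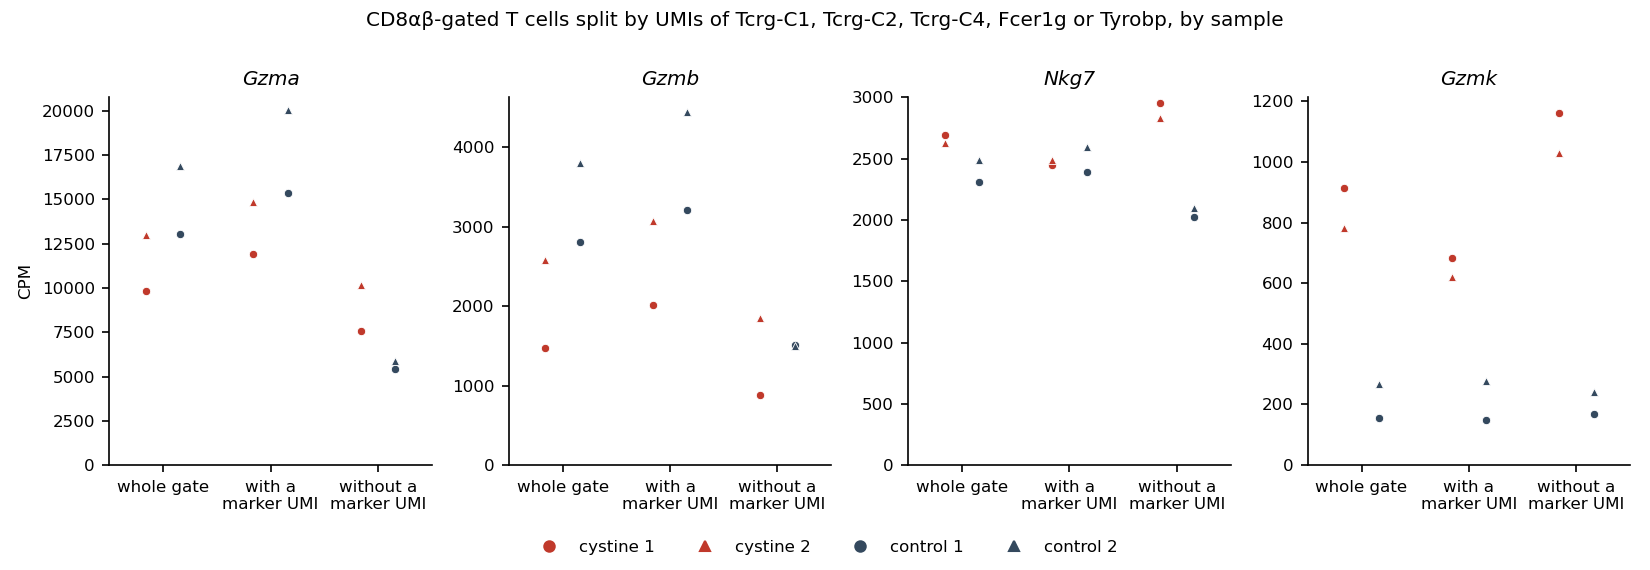
CPM of Gzma, Gzmb, Nkg7 and Gzmk in the whole CD8αβ gate and in its cells with and without UMIs of Tcrg-C1, Tcrg-C2, Tcrg-C4, Fcer1g or Tyrobp, with 1 point per sample. With marker UMIs the Gzma values of the cystine samples lie below those of the controls, which was not tested. Without marker UMIs they lie above, with the cystine samples at 7558 and 10161 CPM and the controls at 5420 and 5893 CPM.

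An interaction term, with samples as blocks, tested whether the diet effect differed between gates. For CD8αβ minus γδ T cells 1.04% of 11195 genes were called, with 2 of 9 granule genes lower and none higher. Gzmb was at -0.65 (SE 0.14, adjusted p = 0.0266) and Gzma at -0.38 (SE 0.09, adjusted p = 0.0457). Both calls were lost without cystine 1 (Gzmb -0.26, Gzma -0.13) and without control 2 (Gzmb -0.56, Gzma -0.33). With the CD8αβ cells without marker UMIs, where 0.583% of genes were called, Gzma turned to 0.67 (SE 0.11, adjusted p = 0.000666) and Gzmb was at -0.10 (SE 0.17, adjusted p = 0.910). Nkg7 was then at 0.56 (SE 0.11, adjusted p = 0.00355), against 0.19 (SE 0.08, adjusted p = 0.443) with the whole gate. The fit with the marker-free cells was not repeated with a sample left out. For CD8αβ minus CD4 T cells 0 of 8 granule genes and 0% of 7360 genes were called, with 1 granule gene and 362 genes in all below an unadjusted p of 0.05. Without cystine 1 or cystine 2 some granule genes passed, but the calls over all genes rose too. Those fits had a single sample in a group.

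The share of CD8αβ T cells with a Gzma UMI went the other way from the level. At 500 UMIs per cell it was 75.5% and 73.6% in the cystine samples, against 62.8% and 55.2% in the controls, whereas the CPM was lower in the cystine samples. No order is read from this share, and the share with at least 5 UMIs was alike in both diets, as given above. For Gzmb the share was 33.4% and 42.5% in the cystine samples, against 42.9% and 45.9% in the controls. In a two-sided exact permutation test over 2 against 2 samples both had p = 0.33, the smallest p this design allows. In γδ T cells the mean share was 90.7% in the cystine samples and 89.7% in the controls for Gzma, and 74.1% in the cystine samples and 75.4% in the controls for Gzmb.

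The other genes of the pathway were counted by list. In the contrast of γδ over CD8αβ T cells the cell-surface killer Tnfsf10 (0.88), the transcriptional repressor Prdm1 (0.71), the granule membrane protein Lamp1 (0.63), the fusion protein Snap23 (0.61), the death ligand Fasl (0.43), the regulator Runx3 (0.42), the serpin Serpinb6a (0.30) and the sorting gene Ap3b1 (0.30) were higher. Gzmk (-1.61), the cytokines Tnf (-1.87) and Lta (-2.33), the granule sorting gene Lyst (-0.85) and the regulator Id2 (-0.61) were lower. By list, 3 of 13 genes of granule maturation, transport and release were higher and 1 lower, 2 of 5 death ligands and cytokines higher and 2 lower, 2 of 4 regulators tested higher and 1 lower, and 1 of 2 other serpins tested was higher. With 38.7% of all genes called in that contrast, 4 of 13 is near the background, and nothing is read from the counts. The medians of these lists were 0.18, -0.58, 0.26 and -0.26, against 0.02 over all genes. Tnfsf10, Prdm1, Snap23, Tnf and Gzmk passed with each sample left out. Without cystine 1 Lamp1 (0.56) and Serpinb6a (0.14) lost the call, without cystine 2 Lyst (-0.65), Id2 (-0.60), Ap3b1 (0.27) and Serpinb6a (0.32), and without control 1 Ap3b1 (0.29), Fasl (0.32), Lta (-0.78), Runx3 (0.35) and Id2 (-0.62).

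CD8αα-gated cells, set against the same CD8αβ samples, were higher in Tnfsf10 (0.84), Prdm1 (0.73), Snap23 (0.70), Lamp1 (0.51), Fasl (0.50), Runx3 (0.41), Serpinb6a (0.31) and Ap3b1 (0.27). They were lower in Lta (-2.03), Tnf (-1.92), Gzmk (-1.91), Lyst (-0.63) and Id2 (-0.58), in a contrast where 35.4% of all genes were called. Without cystine 1 Lamp1 (0.40) and Serpinb6a (0.18) lost the call, without cystine 2 Lamp1 (0.39), Lyst (-0.41), Ap3b1 (0.23), Serpinb6a (0.31) and Id2 (-0.57), without control 1 Lyst (-0.71), Ap3b1 (0.26), Serpinb6a (0.32), Lta (-0.48), Runx3 (0.33) and Id2 (-0.59), and without control 2 Ap3b1 (0.22). Between Tcrg-V7 and Tcrg-V1 cells, where 6.35% of genes were called, Prdm1 (0.48), Tnfsf10 (0.39), Id2 (0.27) and Fasl (0.24) were higher and Gzmk (-0.31) was lower. Of these, Tnfsf10 passed with each sample left out. Prdm1 lost the call without cystine 1 (0.40), cystine 2 (0.46) or control 1 (0.47), Id2 without cystine 2 (0.23) or control 2 (0.22), Fasl without control 1 (0.21), and Gzmk without cystine 1 (-0.31), cystine 2 (-0.25) or control 2 (-0.20).

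In CD4 T cells relative to CD8αβ T cells the cytokines Ifng (2.88, SE 0.45) and Tnf (1.72, SE 0.36) were higher, and Fasl (-1.15), Runx3 (-1.02), Snap23 (-1.23), the granzyme activator Ctsc (-0.90) and Gzmk (-2.47) were lower. Without cystine 1 the calls of Ctsc (-0.99) and Gzmk (-1.92) were lost, without cystine 2 those of Ctsc (-0.86), Snap23 (-1.08) and Gzmk (-2.71), and without control 1 those of Ctsc (-1.01), Snap23 (-1.13) and Tnf (1.60). In cycling T cells the serpin Serpinb1a was higher (2.25, SE 0.40), whereas Fasl (-1.37), Prdm1 (-1.16), Snap23 (-0.83), Gzmk (-0.83), Tbx21 (-0.64), Runx3 (-0.59), Tnfsf10 (-0.52), Ctsc (-0.43) and the proteoglycan gene Srgn (-0.36) were lower. In that contrast Tbx21 (-0.45), Prdm1 (-0.89) and Tnfsf10 (-0.56) lost the call without cystine 1, Ctsc (-0.45) without control 1, and Srgn (-0.37), Ctsc (-0.28), Tnfsf10 (-0.54), Tbx21 (-0.70) and Runx3 (-0.55) without control 2. Ncr1+ cells had more Tbx21 (1.80, SE 0.34), Tnf (2.88, SE 0.46) and Ifng (2.31, SE 0.71) than CD8αβ T cells and less Gzmk (-3.98). Serpinb9b was also called higher, with no fold given because CD8αβ T cells had no UMI of it. Of these, Ifng lost the call without any 1 sample (1.62 to 2.61), Gzmk without cystine 1 (-3.37) or cystine 2 (-3.60), and Tnf without control 1 (2.13).

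Between the diets, few other genes of the pathway passed. Gzmk, a granzyme of memory T cells, stood at 914 and 783 CPM in CD8αβ T cells of the cystine samples, against 154 and 269 CPM in the controls (1.93, SE 0.20, adjusted p = 0.00158). In γδ T cells it stood at 127 and 118 CPM in the cystine samples, against 195 and 310 CPM in the controls (-1.13, SE 0.20, adjusted p = 0.0195), and lost the call without control 2 (-0.69) and with DESeq2's Wald test (-1.13, adjusted p = 0.405). Its value in the CD8αα gate, -1.01 (SE 0.31, adjusted p = 0.709), passed without cystine 1 (-1.11, adjusted p = 0.017) or control 1 (-1.50, adjusted p = 0.00024). Serpinb1a, an inhibitor of neutrophil proteases, fell by 2.01 in CD8αβ T cells (SE 0.39, adjusted p = 0.0471), and lost the call without control 1 (-2.09) or control 2 (-1.94) and with doublets kept (-1.85, adjusted p = 0.0673). Of the 13 genes of granule maturation, transport and release, none passed in γδ, CD8αα-gated or CD8αβ T cells, and their medians were -0.19, -0.15 and -0.21. Of the death ligands and killer cytokines none passed in those gates, and of 4 transcriptional regulators tested none passed, with a median of 0.45 in CD8αβ T cells. The diet effect on Tbx21, which encodes the regulator T-bet, was higher in CD8αβ than in γδ T cells by 0.78 (SE 0.19, adjusted p = 0.0471), a call that was lost without any 1 of the 4 samples (0.70 to 0.87).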

How the data were processed

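Single-cell RNA was measured in 4 samples. The files hold raw UMI counts per gene and barcode, deposited by the authors, made with Cell Ranger 3.1.0 and used with Seurat 4.0.1 on GRCm39 per the submitters' processing notes; the file headers name version 7.0.1. Barcodes under 300 genes or over 10% mitochondrial UMIs were dropped, and doublets called by Scrublet in scanpy 1.11.5, at 0.8% per 1000 barcodes, were removed. Groups follow the sample titles. Counts were summed per sample and gate, for gates holding 30 cells or more per sample, and tested in R 4.3.3 with edgeR 4.0.16 (filterByExpr, TMM, quasi-likelihood test, Benjamini-Hochberg adjustment over all genes tested, threshold 0.05), with DESeq2 1.42.0 as an alternative. The SE of a log2 fold change is its size over the root of the F statistic. Fits were tested on simulated data. The 10 genes, the pathway lists and the tests were chosen with earlier results of these data known. The rule was to name the 10 genes in each gate and, of each list, the genes called, up to 4 per direction; where values are not printed, counts and medians cover the members tested. The marker-free CD8αβ subset, the limit of 20 cells, the bar of 5 UMIs of 500, the promoter motifs and the crossed block were chosen after seeing the data. Shares were compared after thinning each cell to 500 UMIs. Alternatives covered normalization, the count filter, doublets, cell filters, gates and each sample left out.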

Additional observations from a re-analysis of the deposited data

Results flagged for a closer look

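The diet effect differed between CD8αβ and γδ T cells, by the test of the difference itself, for 2 of 9 granule genes tested and 2 other genes of the pathway. Over all genes, 1.04% of 11195 were called in that test. For Gzma the difference, CD8αβ minus γδ, was -0.38 on the log2 scale (SE 0.09, edgeR adjusted p = 0.0457), and for Gzmb -0.65 (SE 0.14, adjusted p = 0.0266). Both calls were lost without cystine 1 (-0.13 and -0.26) or control 2 (-0.33 and -0.56). In the CD8αβ cells without γ chain, Fcer1g or Tyrobp UMIs, Gzma was at 0.67 and Gzmb at -0.10, in a fit not repeated with a sample left out. For Gzmk, a granzyme of memory T cells, the difference was 3.07 (SE 0.12, adjusted p = 1.16e-12), and 3.50 in that subset. For Tbx21 it was 0.78 (SE 0.19, adjusted p = 0.0471), a call lost without any 1 of the samples (0.70 to 0.87) and in the subset (0.81, adjusted p = 0.425). The share of CD8αβ cells with a marker UMI was lower in both cystine samples than in the controls, a single UMI can be free RNA, and the part of either in these differences was not tested beyond that subset.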

How the results depend on the processing

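With 4 samples, 2 per diet, single samples decide much. Sparse genes (Gzmc, Gzmm, Prf1) limit what a share of cells can show, free RNA sets a floor for Gzma and Gzmb, and gates by single UMIs mix cell types. The cause of each shift below was not tested. The labels do not say whether replicate numbers pair the samples. Deviations of same-numbered samples correlated at 0.10 in γδ, -0.19 in CD8αα-gated, 0.0050 in CD8αβ and 0.08 in CD4 T cells. With 2 samples per diet these correlations cannot tell whether samples were paired. With the replicate block, the diet calls over all genes numbered 170 in γδ, 56 in CD8αα-gated and 306 in CD8αβ T cells, against 50, 5 and 59 without it, and 2 granule genes were called in CD8αβ T cells (Gzma -0.46, Gzmb -0.82). With crossed numbers as the block, CD8αα-gated cells had 58 calls, and no crossed fit was run in the other gates. DESeq2's Wald test called 22 genes in CD8αα-gated and 1 in CD4 T cells. Without a filter on low counts the diet calls were 263, 18, 308 and 33 in γδ, CD8αα-gated, CD8αβ and CD4 T cells, with 1 granule gene in γδ and 2 in CD8αβ T cells. The same setting gave 641 calls for CD4 over CD8αβ, 892 for Ncr1+ over CD8αβ, 204 for CD8αβ minus γδ in the diet effect, and 1 granule gene for CD8αβ minus CD4 T cells. Keeping doublets gave 9 diet calls in CD8αα-gated and 25 in CD8αβ T cells, a Ctsw diet effect of 0.0091 in CD8αβ T cells, and a Gzmc value of 0.24 for CD4 over CD8αβ. A stricter cell filter gave 26, 1 and 98 diet calls in γδ, CD8αα-gated and CD8αβ T cells, with 1 granule gene in the last. Stricter gates gave 221 calls between Tcrg-V7 and Tcrg-V1 cells (Gzmc -0.18), a Ctsw diet effect of 0.0090 in CD8αβ T cells, and, over CD8αβ, Cst7 at -0.0609 and Serpinb9 at -0.0092 in γδ and Serpinb9 at -0.0321 in CD8αα-gated cells. They left 1 granule gene called for the difference between CD8αβ and γδ, as DESeq2's size factors did, with Gzmc at 0.86. Those size factors put Serpinb6b in cycling cells at 0.0073 and Cst7 in Ncr1+ cells at 0.0486.

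The CD8αβ cells without marker UMIs, a choice made after seeing the data, gave 1 granule gene called between the diets (Gzma 0.55), with Ctsw at 0.23 and Cst7 at 0.0212. Fits of these cells were not repeated with a sample left out. Over them, Cst7 in γδ was at -0.0004, Serpinb9 at -0.14 in γδ and in CD8αα-gated cells, and Ncr1+ cells had Gzma at 0.43 and Gzmb at 0.30. The difference of the diet effect from γδ had 64 calls, Gzma at 0.67, and a Gzmc value of 6.36 that is no bound, because the controls had no Gzmc UMI there.

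Leaving out each sample in turn gave 10 to 222 diet calls in γδ (granule genes 0 to 3), 17 to 158 in CD8αα-gated (0 to 4), 20 to 148 in CD8αβ (0 to 2) and 0 to 62 in CD4 T cells (0 to 4), with 0 to 3 granule genes in B cells and 0 to 1 in monocytes or macrophages. Calls over all genes also rose in B cells, in monocytes or macrophages and for CD8αβ minus CD4 T cells with each sample left out. In γδ T cells the diet effect ranged from -0.26 to 0.12 for Gzma, -0.34 to 0.0255 for Gzmb, -0.30 to 0.18 for Gzmc, -0.25 to 0.0357 for Prf1, -0.23 to 0.0239 for Nkg7 and -0.19 to 0.0467 for Ctsw. In CD8αα-gated cells it ranged from -0.42 to 0.10 for Gzma, -0.50 to 0.0809 for Gzmb, -0.16 to 0.20 for Gzmc and -0.42 to 0.0213 for Prf1. In CD8αβ T cells it ranged from -0.0090 to 0.17 for Nkg7, -0.0455 to 0.0041 for Ctsw and -0.59 to 0.0317 for Serpinb9. Over CD8αβ, Cst7 in γδ ranged from -0.0022 to 0.12, Serpinb9 from -0.0405 to 0.15 in γδ and -0.0876 to 0.16 in CD8αα-gated cells, and Serpinb6b in CD4 from -0.53 to 0.0087. Calls over all genes were 222 to 309 for CD4 over CD8αβ (granule genes 2 to 5), 354 to 527 between Tcrg-V7 and Tcrg-V1 cells (Gzmc -0.0706 to 0.11), 1947 to 2753 for cycling cells (Serpinb6b -0.17 to 0.0448) and 248 to 433 for Ncr1+ cells. For CD8αβ minus γδ they were 57 to 189 (granule genes 0 to 2, Gzmc -1.10 to 1.24, Ctsw -0.0244 to 0.15), and 0 to 4 granule genes were called for CD8αβ minus CD4.

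The difference in the share of cells with a UMI, in percentage points, ranged in γδ T cells from -0.862 to 2.87 for Gzma, -0.241 to 0.798 for Prf1 and -2.28 to 1.67 for Nkg7, and from -0.0628 to 0.484 for Prf1 in CD8αβ T cells. Without thinning it was -0.631 for Prf1 and 0.14 for Nkg7 in γδ and -0.236 for Nkg7 in CD8αβ T cells, and with stricter gates as well -0.731 and 0.356 in γδ. Thinned to 1000 UMIs it was 0.33 for Gzmb and 0.0687 for Nkg7 in γδ and -0.227 for Prf1 in CD8αβ T cells.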
